A study of Drosophila melanogaster with 4 samples.

Results

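The stretches described here are the long intervals of the Drosophila genome in which neither of 2 RPD3 ChIP-seq libraries had an enriched region. RPD3 is a histone deacetylase of the fly and the counterpart of HDAC1 and HDAC2 in mammals. The enriched regions of both replicate lists on the arms 2L, 2R, 3L, 3R and X were pooled, overlapping ones were merged, and each space of at least 40000 bp between neighbouring merged regions of an arm was taken as a gap. Of 8929 such spaces, 512 were gaps, which is 5.73% of them. The other 8417 spaces were shorter. The gaps were chosen by the positions of the regions, so their number, length and place are given as a description of these lists, with no test.

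The study made 2 ChIP libraries, with an antibody that the labels call Q3451, and 2 input libraries, 1 for each ChIP library. All came from whole embryos of the wild-type strain Oregon-R, collected at 14 to 16 h and fixed with formaldehyde. Replicate 1 had 6782 enriched regions on the 5 arms, which covered 15.4 Mb, and replicate 2 had 7413, which covered 17.9 Mb. One further list belonged to the series as a whole. This combined list had 18110 enriched regions on the arms, which covered 39.7 Mb. Read numbers were not part of the lists, and the sequencing depth was unknown. A space without a called region can therefore hold weaker binding, or binding in few of the cells of the embryo. Nothing in the labels tells if the replicates came from separate collections of embryos, so the spread between them may be technical. Positions follow FlyBase release 5 and count from 1. Genes and sequence at these coordinates were not analysed here.

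Histone deacetylases remove acetyl groups from the tails of histones. RPD3 supplies this activity to several co-repressor complexes, which contain Sin3A, CoREST or the chromatin remodeller Mi-2, and in fly and mammal its relatives are found at active genes as well as at repressed ones, since acetyl groups are added and removed there continually. Much of the fly genome lies instead in long domains with few active genes, where histone acetylation is low. Next to the centromeres the arms pass into heterochromatin, which is rich in repeats, carries methylated histone H3 lysine 9 and binds HP1a. Short reads from repeats are difficult to place, so signal there can be lost from a list of regions for a technical reason.

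The gaps covered 35.9 Mb, or 30.2% of the 119 Mb of the 5 arms. They made up 37.2% of the sequence between merged regions, although they were 5.73% of the spaces by number. The median gap was 56.9 kb long, with quartiles at 46.6 and 81.1 kb, whereas the median of all spaces was 4178 bp. There were 83 gaps of at least 100 kb, which together held 11.2 Mb, and 6 of at least 200 kb. Just inside the minimum length were gaps of 40062 bp on 2L, 40151 bp on X and 40188 bp on 2L. Just outside it were spaces of 39896 bp on 2R, 39877 bp on 3L and 39857 bp on X, so the lengths ran on without a break at 40 kb.

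Taken from a single list, gaps were more numerous and longer, since each list lacked some regions of the other. Replicate 1 alone had 666 gaps, which covered 44.4% of the arms, and replicate 2 alone had 622, which covered 39.6%. The mean was 644 ± 31.1 gaps and 42.0% ± 3.41 of the sequence (SD, n = 2). The median pooled gap lay in a space of 78.8 kb in replicate 1 and of 71.9 kb in replicate 2. In 181 of the 512 pooled gaps the space of replicate 2 already had both ends of the pooled gap, and in 84 that of replicate 1 did. One pooled gap had no bounding region on one side in replicate 1.

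The arms differed in how much of them lay in gaps. On 2L, 119 gaps (8.30% of its spaces) covered 9.27 Mb, or 40.3% of the arm. On X, 117 gaps (7.46% of its spaces) covered 35.6%, and on 3L, 118 gaps (7.04%) covered 34.0%. Arm 3R had 99 gaps (4.36%) that covered 23.3%, and 2R had 59 (2.98%) that covered 18.0%. From single lists the share of 2L was 51.2% ± 2.70 and that of X 47.0% ± 5.40, a difference within the spread of X (SD, n = 2). Within each list 2L nevertheless lay above X, with 53.1% against 50.8% in replicate 1 and 49.3% against 43.2% in replicate 2. The share of 2R was 29.4% ± 0.116 and lay below that of each other arm in both replicates. On 3L it was 45.3% ± 4.25 and on 3R 37.2% ± 4.16 (SD, n = 2 each). The median gap was 63.4 kb on 2L, 61.2 kb on X, 55.8 kb on 3L, 51.3 kb on 3R and 51.2 kb on 2R. Gaps of at least 100 kb numbered 25 on 2L, 18 on 3L, 16 on X, 14 on 3R and 10 on 2R.

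Long spaces were more frequent than randomly scattered regions would leave. A closed formula gave the expected number of gaps for as many regions placed at random, with uniform probability, in the same free sequence of each arm. This is called even placement here. It gave 241 gaps of at least 40 kb, so the observed 512 were 2.12 times as many. For spaces of at least 60 kb the observed number was 236 against 44.4, and at 100 kb it was 83 against 1.71. Short spaces were also common: spaces of at least 10 kb numbered 2616 against 3490, which leaves more spaces under 10 kb than even placement. The observed number passed that of even placement between minimum lengths of 20 and 30 kb. At 40 kb the ratio was 4.07 on 2R, 2.51 on 3R, 2.33 on X, 1.90 on 3L and 1.59 on 2L. Arm 2R thus had the highest ratio to even placement, while the share of its spaces that were gaps was the lowest of the arms. Even placement itself gave 14.48 gaps on 2R, which had 1983 merged regions, and 74.96 on 2L, which had 1435. The expected number falls as regions become denser, so the ratio at a fixed minimum length depends on their density. If regions were more clustered on 2R than on other arms was not tested.

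This ratio differed between lists, which differ both in how many and in which regions they hold. At 40 kb it was 1.34 for replicate 1 alone and 1.54 for replicate 2 alone. For the regions found in both lists it was 0.92, and for the better-scoring part of the lists 0.998, so the excess at 40 kb ended there. In those shorter lists even placement itself gave 769 gaps in each case. At 100 kb, a length added after these values were seen, the observed number exceeded even placement in each of these 4 lists, with ratios of 11.2, 17.1, 3.80 and 2.79 in the same order. Regions are not independent of each other, and these ratios describe the lists without a test.

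**Figure D1:**
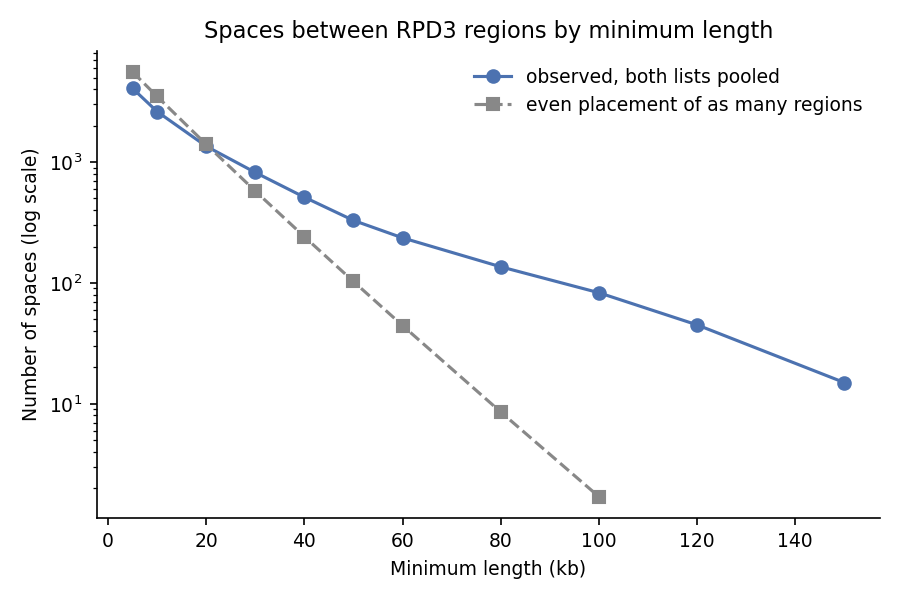
The number of spaces between neighbouring merged RPD3 regions on the 5 arms (vertical axis, log scale) that reach each minimum length (horizontal axis, kb). Circles are the observed numbers and squares those expected for even placement of as many regions, drawn where at least 0.5 spaces are given. Even placement means random placement with uniform probability. The lines cross between 20 and 30 kb, and at 100 kb the numbers are 83 observed and 1.71 for even placement.

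The longest gap lay on 3L at 3L:18228567-18581831 and spanned 353 kb. In replicate 1 this space was 357 kb long and in replicate 2 353 kb. It was flanked on its left by a weak region found in both lists, which scored 0.48 in replicate 1 and 0.40 in replicate 2. The score is the authors' value of each region, and its log2 scale was inferred. The median score on the arms was close to 0.8 in the regions of both lists that did not border a gap, with 0.80 in replicate 1 and 0.79 in replicate 2. The longest stretch inside this gap with no region of any of the 3 lists was 103 kb.

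A group of long gaps lay side by side on 2L. The gap at 2L:16902571-17202005 was 299 kb long, and the next at 2L:17203353-17373538 was 170 kb long. The region between them was listed in replicate 2 alone, so that replicate 1 had a single space of 480 kb there. Further along, 2L:17559858-17768102 (208 kb) and 2L:17769563-17962521 (193 kb) were also parted by a region of replicate 2 alone, with a score of 0.84, and replicate 1 had a single space of 419 kb. Of the 1-Mb window from 17 to 18 Mb of 2L, 85.9% lay in gaps, the highest share of the 117 windows. In the other windows the share was at most 71.6%, on 3L from 23 to 24 Mb, and the median was 27.5%. More than 50% of the sequence lay in gaps in 14 windows, of which 6 were on 3L and 5 on 2L, with 1 each on 2R, 3R and X. In 1 window, on 2R, there was no gap.

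The longest gap of the X lay near its centromere end, at X:21631901-21845884. It spanned 214 kb and had the same flanking regions in both lists, with left scores of 1.20 in replicate 1 and 1.13 in replicate 2 and right scores of 0.57 and 0.73. The longest of 3R was at 3R:8540271-8740497, with 200 kb, and was 207 kb long in replicate 1 and 200 kb long in replicate 2. The longest of 2R was at 2R:2211101-2345725, with 135 kb, against 135 kb in replicate 1 and 148 kb in replicate 2. The other 3 of the 10 longest were 3L:22942429-23146033 (204 kb), 2L:3878508-4061981 (183 kb) and 3L:23995679-24172265 (177 kb). Replicate 1 had a space of 354 kb at the first of these 3, and the ends of that gap were set by regions of replicate 2 alone.

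Summed over the arms, gaps took up more sequence next to the centromere than next to the telomere, but the arms did not share 1 trend. With each arm divided into 5 equal parts, the share in gaps was 21.1% in the fifth next to the telomere, then 28.8%, 31.5% and 36.3%, and 33.2% in the fifth next to the centromere. From single lists the part next to the centromere had 43.8% ± 2.29 and that next to the telomere 33.9% ± 2.30 (SD, n = 2 each), which do not overlap between the replicates. The part next to the centromere held 22.0% of all gap length, close to the 20% that an even share would give. In the pooled lists the part next to the centromere had a higher share than that next to the telomere on each arm, and the parts between them did not line up. From telomere to centromere the shares were 28.1%, 26.7%, 38.4%, 64.1% and 44.1% on 2L. They were 8.09%, 27.5%, 11.1%, 14.1% and 29.4% on 2R, and 20.7%, 31.6%, 42.2%, 43.7% and 32.0% on 3L. On 3R they were 15.3%, 20.8%, 27.0%, 28.3% and 25.2%. Thus 2R had a second high part far from the centromere, and 2L, 3L and 3R were highest in the part before the last. On X the pooled parts ranged from 30.7% to 39.0%, with 33.9% next to the telomere and 36.7% next to the centromere. Single lists kept this order on 2L but not on all arms. On 3R the third part was highest in both replicates, with 46.6% and 38.8%, and on 3L in replicate 1, with 58.5%. On 2R the second part from the telomere exceeded the last in both replicates. It had 43.0% against 38.7% in replicate 1 and 39.2% against 36.9% in replicate 2.

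The last 2 Mb before the centromere end of the assembled arms, a window chosen after these values were seen, had 49.7% of their sequence in gaps, against 28.4% in the rest. From single lists the value was 60.9% ± 4.25 (SD, n = 2). In the pooled lists it was 59.3% on X, 58.6% on 3L, 57.8% on 2L and 51.2% on 2R. Arm 3R differed, with 21.4% in this window and 23.5% in the rest of the arm. How much of this sequence can be reached by short reads was not tested.

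**Figure D2:**
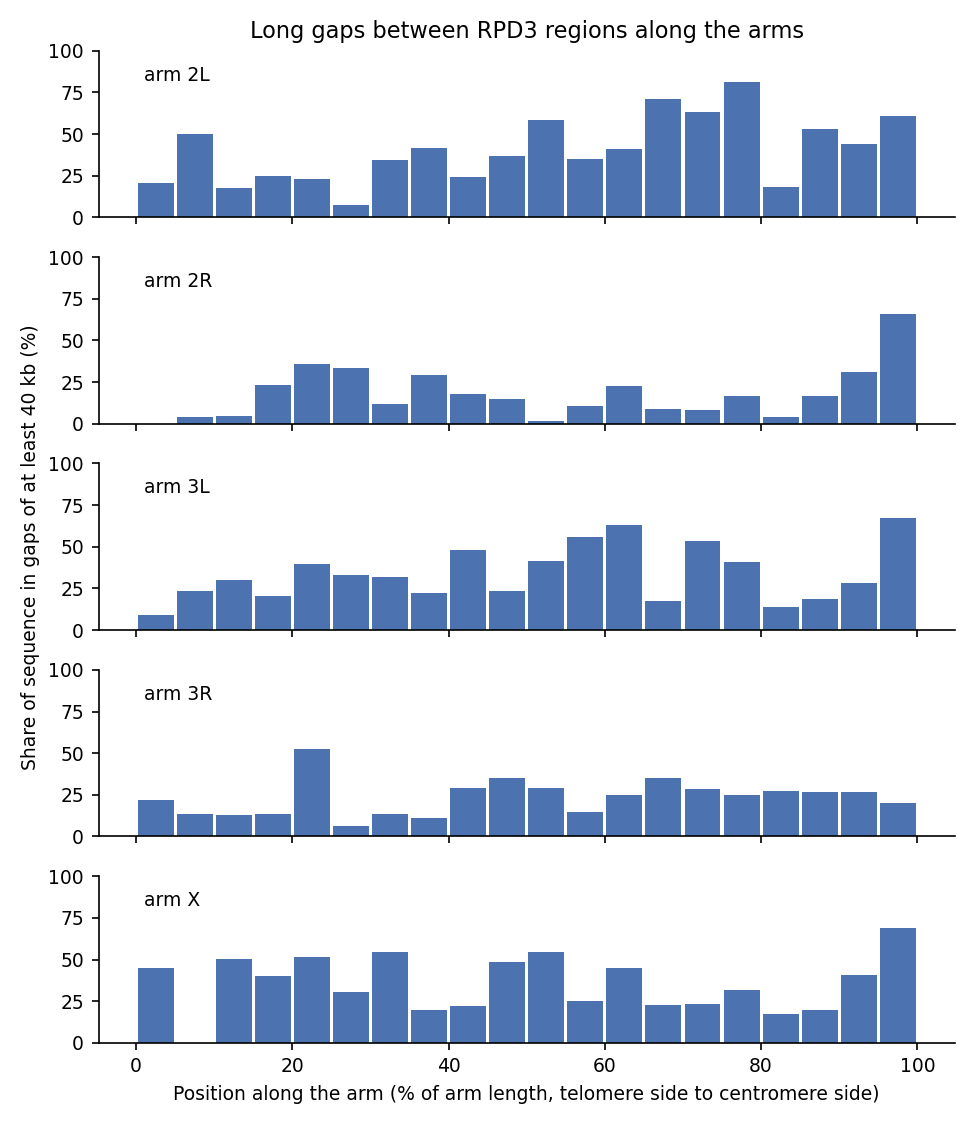
The share of sequence in gaps of at least 40 kb (vertical axis, %) in each twentieth of an arm, from the telomere side on the left to the centromere side on the right (horizontal axis, % of arm length). Each panel is 1 arm and each bar 1 twentieth, from the pooled lists. On 2L, 2R, 3L and X the last bar is higher than the one before it, while on 3R it is not.

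Gaps tended to lie beside each other. The space that followed a gap across a single merged region was itself a gap in 91 of 512 cases, or 17.8%, against 5.73% of all spaces. Spaces on either side of a gap had a median of 10381 bp, against 4178 bp for all spaces. There were 71 runs of at least 2 neighbouring gaps, which held 162 gaps, and 350 gaps stood singly. The run with the most gaps was on 2L at 2L:12127816-12424891, with 5 gaps in 297 kb. Runs of 4 lay at 3L:10320791-10623688 (303 kb), 3R:6731988-7011571 (280 kb), 2L:14718376-14971588 (253 kb) and X:7329370-7579590 (250 kb). On 2R the most was a run of 3 at 2R:13048834-13249781 (201 kb). By span the order was different, and runs of 2 came first, at 2L:16902571-17373538 (471 kb), 3L:18152413-18581831 (429 kb) and 2L:17559858-17962521 (403 kb). On 2R the widest was a run of 2 at 2R:442832-656636 (214 kb).

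The 91 merged regions with a gap on both sides were isolated in the 2 replicate lists. The combined list could still have regions in the gaps beside them. Of the 91 merged regions, 30 were on 2L, 22 each on 3L and X, 9 on 3R and 8 on 2R. Both lists held 31 of them (34.1%), replicate 1 alone 28 and replicate 2 alone 32, whereas 51.6% of all merged regions were in both lists. They were narrower, with a median width of 1547 bp, against 1936 bp for merged regions that bordered no gap. Of the latter 53.1% were in both lists, and a merged region of both lists joins overlapping regions. Widths were not compared at equal support by the lists. By the higher of the replicate scores, the first was at 2L:21478651-21480138, which scored 3.11 in replicate 2 and had no region in replicate 1, between gaps of 80.2 and 113 kb. The second, at 2R:2345726-2348172, scored 1.501 in replicate 1 and 0.83 in replicate 2 and closed the longest gap of 2R. Next came 2L:20150520-20152877, with scores of 1.04 in replicate 1 and 1.38 in replicate 2, and 2L:1883637-1886179, with 0.94 and 1.08 in the same order. The fifth, at X:6361013-6362786, scored 1.05 in replicate 1 and had no region in replicate 2. Strong isolated sites were thus listed in both replicates in 3 of these 5 cases.

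The 933 merged regions that bordered a gap were found in both lists less often than those that did not, with 38.8% against 53.1%, and were narrower, with medians of 1641 and 1936 bp. Their scores were hardly lower. In replicate 1 the median was 0.79 for the 607 border regions and 0.80 for the other 6175, and in replicate 2 it was 0.78 for 716 border regions and 0.79 for 6697 others. The mean difference was -0.0074 ± 0.0033 (SD, n = 2). With a minimum of 60 kb it turned to 0.0027, so the border scores gave no stable direction. In 84 gaps (16.4%) the merged regions at both ends were found in both lists. For the rest, at least 1 end was set by a region of a single replicate.

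Gaps of 1 replicate list can be compared with the other list, which took no part in choosing them. Gaps were taken from replicate 1 alone, and regions of replicate 2 were counted inside them, and then the reverse. In the gaps of replicate 1, replicate 2 had 916 regions, or 17.3 per Mb, against 98.2 per Mb in the rest of the arms. In the gaps of replicate 2, replicate 1 had 551 regions, or 11.7 per Mb, against 86.7 per Mb in the rest. The density in the gaps was 14.5 ± 3.98 per Mb, against 92.5 ± 8.17 per Mb in the rest, a ratio of 0.156 ± 0.029 (SD, n = 2 each). Regions held by both lists cannot lie wholly in a gap of either one, so part of this ratio was fixed by the way the gaps were chosen. Of the merged regions with a region of replicate 1, 4612 of 6370 were in both lists. For replicate 2 it was 4612 of 7176. The other 1758 and 2564 were in 1 list alone. Their density inside and outside the gaps was not counted separately. The ratio therefore does not tell if the gaps were depleted beyond the general overlap of the 2 lists. The design has no second group of ChIP samples, so no test over samples was possible.

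The gaps of one replicate were nevertheless seldom free of any overlap with the other list. Of the gaps of replicate 1, 84 of 666 (12.6%) had no overlapping region of replicate 2, and of the gaps of replicate 2, 181 of 622 (29.1%) had none of replicate 1. An overlap of 1 bp was enough, also by a region at the border that reached slightly further in. Gaps with such a border overlap only were not counted apart from gaps that held a region inside. No gap held more than 7 regions of the other list by midpoint. The density fell with gap length. In the gaps of replicate 1, replicate 2 had 22.8 regions per Mb in gaps of 40 to 60 kb, 18.2 in those of 60 to 100 kb and 12.9 in longer ones. In the gaps of replicate 2, replicate 1 had 16.2, 12.04 and 7.59 per Mb in the same classes. Regions inside the gaps of the other list were narrower, with medians of 1483 bp against 2043 bp in the rest for replicate 2 and 1464 bp against 1950 bp for replicate 1. They also scored lower, by medians of 0.73 against 0.80 in replicate 2 and 0.76 against 0.81 in replicate 1, a mean difference of -0.058 ± 0.014 (SD, n = 2). The rest includes the regions that both lists held, and regions of 1 list alone outside the gaps were not compared. By arm, the mean density ratio ran from 0.130 on 2L to 0.206 on 3R, so each arm had fewer regions of the other list inside the gaps.

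**Figure D3:**
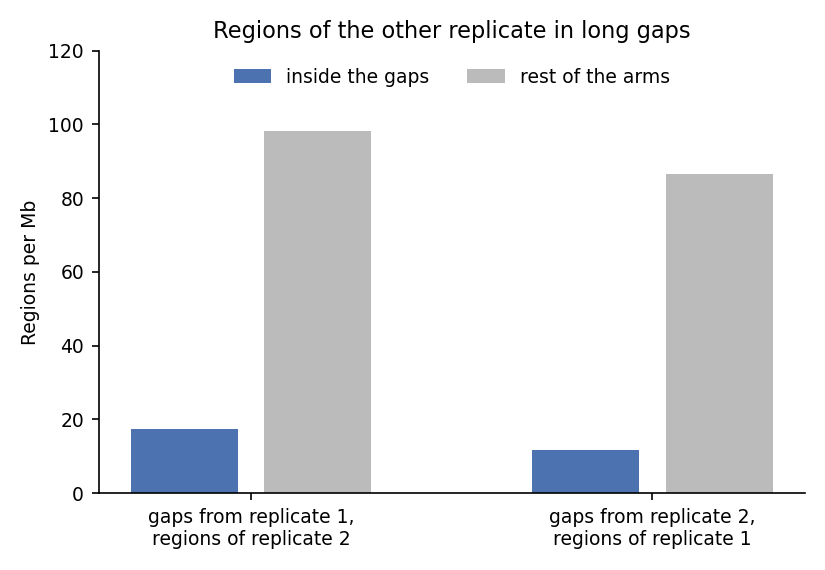
Regions per Mb (vertical axis) of the replicate list that was not used to choose the gaps. Dark bars are inside gaps of at least 40 kb and pale bars are the rest of the 5 arms, with 1 pair of bars for each direction of the comparison and 1 value per bar. The dark bars stand at 17.3 and 11.7 per Mb, and the pale bars at 98.2 and 86.7 per Mb. Regions held by both lists cannot lie wholly in the gaps, so part of the difference follows from the choice of gaps.

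The combined list, which had more than double as many regions as either replicate list, reached into nearly all the gaps. It placed 2923 region midpoints inside them, or 81.3 per Mb, against 182.8 per Mb in the rest of the arms, a ratio of 0.445. With gaps taken from each replicate alone the ratio was 0.529 ± 0.0069 (SD, n = 2 sets of gaps, with the same combined list counted in both). The regions covered 11.4% of the sequence of the gaps and 42.8% of the rest. In all, 505 of the 512 gaps held at least 1 combined-list region, with a median of 5 and at most 19 in a gap. The sources used here do not say how this list was made, and it belongs to the same series, so it is no independent check of the gaps.

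Part of this difference follows from the way the gaps were chosen, since regions that a replicate list also held cannot lie wholly in a gap. Of the 18110 combined-list regions on the arms, 9821 (54.2%) overlapped no replicate region, and 29.6% of these lay in gaps, which make up 30.2% of the sequence. Outside the gaps such regions numbered 83.2 per Mb, close to the 81.3 per Mb in the gaps. Per Mb of sequence outside replicate regions, however, the gaps had 0.719 times the density of the rest. The gaps thus held fewer of these weak regions in the sequence where they could lie. Inside the gaps, 15 regions touched a replicate region at the edge and 2908 did not.

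Combined-list regions became sparser with the length of a gap. Their density was 105.7 per Mb in the 183 gaps of 40 to 50 kb, 90.8 in those of 50 to 60 kb, 79.3 in those of 60 to 80 kb, 81.1 in those of 80 to 100 kb and 65.7 in those of 100 to 150 kb. In the 15 gaps above 150 kb it was 46.8 per Mb. Within gaps it was highest at 2.5 to 5 kb from the nearer edge, with 107.0 per Mb, then fell to 93.6 at 5 to 10 kb, 85.1 at 10 to 20 kb, 77.0 at 20 to 30 kb and 73.1 at 30 to 50 kb. Beyond 50 kb from either edge, which 83 gaps reached, it was 48.3 per Mb. All 512 gaps reached 20 kb from an edge, but 236 reached 30 kb. The fall further in was thus not separated from that with gap length. The first 2.5 kb had 83.6 per Mb. From the part of the arms next to the telomere to the part next to the centromere the density in gaps was 97.2, 90.03, 79.3, 76.3 and 71.1 per Mb. By arm it was 98.9 per Mb on 2R, 98.5 on 3R, 78.9 on X, 78.3 on 3L and 67.0 on 2L, and the ratio to the rest of the same arm was between 0.391 on 2L and 0.515 on 3R.

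**Figure D4:**
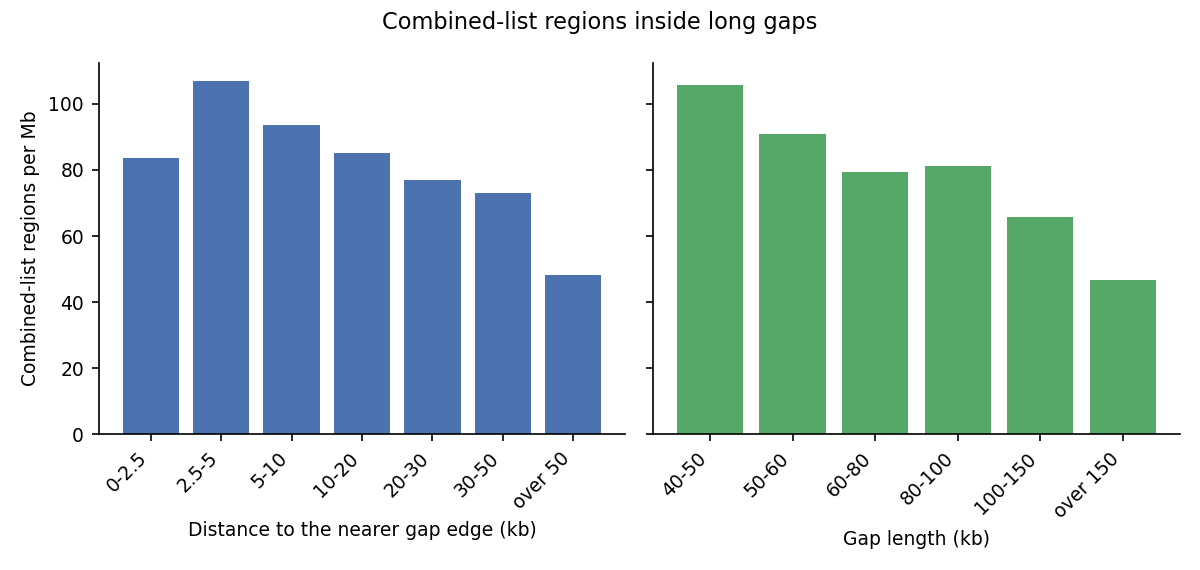
Combined-list regions per Mb (vertical axis) inside the 512 gaps, by distance from the region's midpoint to the nearer edge of its gap (left, kb) and by gap length (right, kb). Each bar is 1 class over all 5 arms. Classes further than 30 kb from an edge come from longer gaps only. The bars fall to 48.3 per Mb beyond 50 kb from an edge and to 46.8 per Mb in gaps above 150 kb.

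The combined list broke up most of the gaps. The median of the longest stretch inside a gap with no region of any list was 23.0 kb, and 79 gaps (15.4%) kept such a stretch of at least 40 kb. Over the arms, 92 spaces of at least 40 kb were free of all 3 lists, 91 of them in gaps. By arm, 34 were on 2L, 21 on X, 16 on 3L, 12 on 3R and 9 on 2R. The longest, 120 kb, lay at 2R:2225969-2345725, followed by 111 kb at X:21650952-21762414. The 1 space outside the gaps, 111 kb at 2R:21003829-21114918, lay beyond the last replicate region of 2R. Next in length were 107 kb at 3L:22944655-23051868 and 103 kb at 3L:18287324-18390740. The longest such stretch of 2R thus took up most of the longest gap of that arm.

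Only 7 gaps had no combined-list midpoint, and 5 of them were on X. They were X:3468492-3549119 (80.6 kb), X:15894033-15966697 (72.7 kb), X:4898334-4958377 (60.04 kb), X:11517115-11566348 (49.2 kb) and X:12098568-12146726 (48.2 kb), with 3R:15769954-15833024 (63.1 kb) and 2L:12241980-12298273 (56.3 kb). The gap X:15894033-15966697 had the same flanking regions in both lists, being 72.8 kb long in each. The gap 2L:12241980-12298273 lay within the run of 5 gaps on 2L, in a space of 251 kb in replicate 1. At the other end, the densest gaps were short, from 40.4 to 47.2 kb. The first was 2R:11625591-11669853, with 12 regions or 271 per Mb, and the second 2R:19194620-19240007, also with 12 regions or 264 per Mb. Then came X:719550-766746 with 12 (254 per Mb), 3R:9364183-9408218 with 11 (250 per Mb) and 3L:18996589-19036965 with 10 (248 per Mb). The density in these 5 gaps exceeded the average outside gaps.

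The combined-list regions in gaps were weak and narrow, with a median score of 0.52 and a median width of 1231 bp. Combined-list regions outside gaps had a median score of 0.49 and a width of 1289 bp where they overlapped no replicate region, and 0.58 and 2419 bp where they overlapped one. The score in gaps was above that of the unsupported regions outside gaps by 0.023. It was higher in each arm, by 0.018 on 2L, 0.029 on 2R, 0.015 on 3L, 0.015 on 3R and 0.019 on X. With gaps taken from each replicate alone the difference was 0.019 ± 0.00036 (SD, n = 2 sets of gaps). Both values rest on the same combined list, so this SD does not measure a spread of its scores between replicates. It is small beside the range of scores, since the central 80% of regions in gaps lay between 0.39 and 0.66. On X the medians were higher in both classes, with 0.60 in gaps and 0.58 outside them.

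A small number of regions in gaps had high scores. Scores above 1 were found in 62 regions in gaps (2.12%), against 66 of the 6913 unsupported regions outside them (0.955%). With each arm in 5 equal parts, 39 of the 62 lay in gaps of the part next to the centromere, among 560 regions there. From the telomere on, the other parts had 2 of 491, 5 of 614, 6 of 597 and 10 of 661. The higher share in gaps thus rested on the part next to the centromere. Unsupported regions outside gaps with scores above 1 were not counted by place. In gaps that began within 2 Mb of the centromere end lay 36 of the 62, and 282 of the 2923 regions. Within that distance the median score was 0.56 in gaps and 0.52 in unsupported regions outside them, and further away it was 0.52 and 0.49. The density of combined-list regions was lower there, with 56.8 per Mb in the gaps near the centromere end and 85.3 per Mb in the other gaps.

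The highest-scoring regions that lay wholly in gaps were X:326511-328320 and 2R:7303245-7304270, both with a score of 3.20. They were followed by 3L:23371510-23372633 with 2.96, 2L:12862160-12863166 with 2.87 and X:13893940-13895077 with 2.46. These 5 were narrow, from 1007 to 1810 bp, and neither replicate list held a region there. The 5 widest had ordinary or low scores. They were 3L:2494164-2498857 (4694 bp, score 0.44), 2R:11652258-11656578 (4321 bp, 0.49), 2R:13230224-13234515 (4292 bp, 0.47), 2R:12713064-12717228 (4165 bp, 0.43) and 3L:19438315-19442363 (4049 bp, 0.38). The second of these lay in the gap with the most combined-list regions per Mb. The combined list marked 2 regions as depleted, and 0 of 2 midpoints lay in a gap. Gaps cover 30.2% of the arms, and the 2 regions were not limited to the 5 arms. So small a count says nothing about the gaps.

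**Figure D5:**
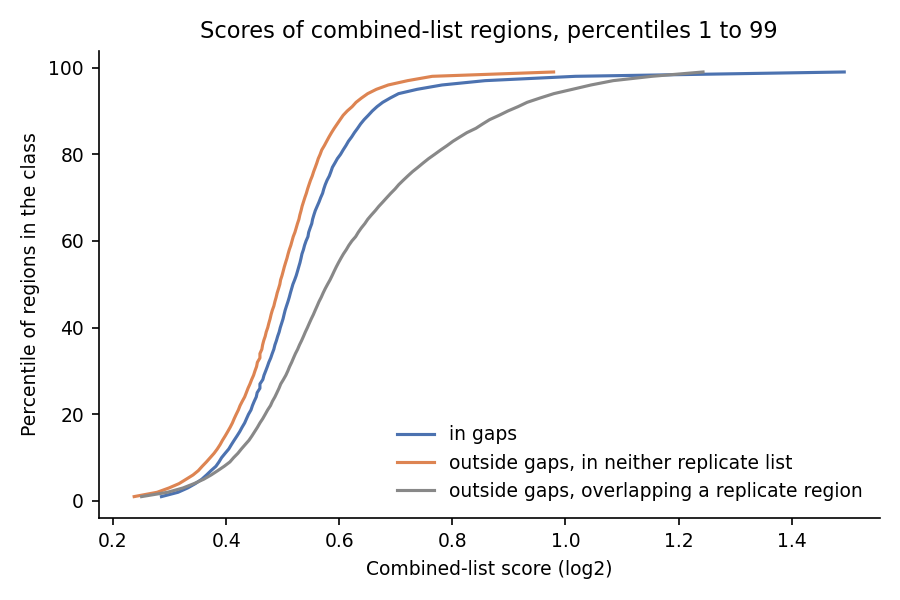
Percentiles 1 to 99 (vertical axis) of the combined-list score (horizontal axis, log2 as inferred) for regions in gaps, regions outside gaps that overlap no replicate region, and regions outside gaps that overlap one. The line for gaps runs close to that of the unsupported regions outside gaps, with medians of 0.52 and 0.49, and left of the third line, with a median of 0.58, over most of the range.

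At the ends of the arms, stretches before the first and after the last region were not counted as gaps, as they have a region on one side only. At the telomere side these were 66.1 kb on 2L, 157 kb on 2R, 131 kb on 3L, 10.5 kb on 3R and 6.14 kb on X. At the centromere side they were 50.3 kb on 2L, 18.5 kb on 2R, 41.1 kb on 3L, 16 bp on 3R and 6.31 kb on X. Those of 2L and 3L would have passed the minimum length at both ends, and that of 2R at the telomere side.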

How the data were processed

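The analysis used 3 lists of RPD3 regions: 1 for each of 2 ChIP libraries and 1 for the series. Groups and replicate numbers were taken from sample titles. The 2 input libraries entered no calculation. Reads were aligned with Bowtie 0.12.7, per the submitters' processing notes, and the build is FlyBase release 5, per the file headers. The region caller, thresholds and repeat filters were not given in the sources used here. Scores as deposited were treated as log2 ratios made by the authors; that scale was inferred, since regions marked as depleted have negative scores and inputs are paired with lists. Scores were used to describe and rank regions within a list. Columns of other samples numbered 0.

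Midpoints decided whether a region lay in a gap, and an overlap needed at least 1 bp. Even placement means random placement with uniform probability. Its expected count was, for each arm, n - 1 times (1 - minimum / free length) to the power n - 2, with n merged regions. The rest of the arms is all sequence outside the gaps. Arms were oriented with their centromere at the high coordinate for 2L, 3L and X and at the low one for 2R and 3R. The gap search and formula were tested on simulated lists. The gap rule and comparisons were chosen with earlier results of these data known. A rule chose the regions that are named: the 10 longest gaps, the longest of each arm, the 3 on each side of the minimum length, the run with the most gaps on each arm, the 5 gaps densest in combined-list regions and those with none, the 5 highest and 5 widest combined-list regions in gaps, and the 5 highest isolated regions. Others were chosen after their values were seen. Alternatives covered the list of regions, minimum length, merging, gap edges, region width, arms and arm ends. Calculations ran in Python 3.11.15 (matplotlib 3.10.9, pandas 2.3.3, numpy 2.4.6).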

Additional observations from a re-analysis of the deposited data

How the results depend on the processing

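No paired analysis was possible because no input values were analysed and no groups of samples were compared. A minimum of 30, 50 or 60 kb gave 820, 329 or 236 gaps, a gap share of 39.1%, 23.3% or 19.1%, and 1.42, 3.20 or 5.31 times the count of even placement. Lists of single replicates gave shares of 39.6% to 44.4%, ratios to even placement of 1.34 to 1.54, and 20.5% to 21.3% of gap length in the fifth of each arm next to the centromere; the ratio was 1.34 without replicate 2, against 2.12 with it. Fewer bounding regions lengthen gaps by construction. Regions found in both lists gave a share of 57.4% and a ratio of 0.92, the better-scoring part 54.2% and 0.998, and the combined list 95 gaps, 4.59% and 22.5. The fifth next to the centromere held 23.6% of gap length at 50 kb and 24.7% at 60 kb. The density ratio of the other replicate was 0.114 for its better-scoring part. That of the combined list was 0.422 at 50 kb, 0.411 at 60 kb, 0.432 without 5 kb at both edges and 0.719 for unsupported regions per Mb outside replicate regions. The score difference in the combined list was 0.022, 0.028 and 0.029 at 30, 50 and 60 kb, 0.022 in narrower and 0.019 in wider regions, and 0.017 without X. The border score difference was -0.014 at 30 kb, -0.020 without X and turned to 0.0027 at 60 kb; the cause was not tested. In 14 other cases values stayed within the spread between replicates or, for counts, within 1.5 times. Depth is unknown, and a deeper library could fill gaps.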
